A study of Mus musculus with 12 samples.

Results

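The genes described here run mitosis, the division of a cell's copied chromosomes between its daughters. The set has 60 genes, chosen by their known function, in 7 subgroups of mitotic kinases and cyclins, spindle checkpoint and anaphase genes, the chromosomal passenger complex, mitotic kinesins, centromere and kinetochore genes, chromosome structure genes, and spindle and cytokinesis genes. Earlier results of these data were known when the genes were chosen. Of the 60, 58 had a probe set of their own among the 22180 genes measured. Ccnf and Ncapg were present only on probe sets shared with another gene and were not read.

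The cells were regulatory T cells (Treg), the Foxp3-expressing T cells that restrain immune responses, sorted by flow cytometry from the spleen. The mice were DEREG animals, whose Foxp3-driven transgene encodes a receptor for diphtheria toxin joined to GFP. Injected toxin (DTx) can therefore remove their Treg. All were sensitised to ovalbumin and later challenged with it. The eTreg group received human serum albumin as a control protein (2 g/kg) and no DTx, the e_iTreg group received intravenous immunoglobulin (IVIg, 2 g/kg) and no DTx, and the iTreg group received DTx (40 ng/g) to deplete Treg already present, with IVIg at the same dose. Each group had 4 arrays, labelled as biological replicates. The protocol text is worded alike for all samples and places DTx before IVIg or albumin, so the grouping follows the series design. None of the 3 groups was given DTx with albumin, so IVIg and DTx change together between eTreg and iTreg.

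Each array was made from 2 ng of RNA amplified in 2 rounds, and its values are log2 signals that share 1 normalization. A log2 difference of 1 is a 2-fold difference. Foxp3, the defining Treg factor, lay between 12.33 and 12.54 in eTreg, between 12.08 and 12.56 in e_iTreg and between 11.84 and 12.43 in iTreg, and none of 6 Treg markers differed between groups by limma. Transcripts of both sexes, Xist and Y-linked genes, were present on 9 of the 12 arrays, and eTreg 3, e_iTreg 4 and iTreg 4 carried the signal of 1 sex only. The labels do not say whether animals were pooled. With 1 value per array, more dividing cells and more mitotic RNA per cell cannot be told apart.

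Most mitotic genes are read in one wave. They are kept silent early in the cell cycle by the DREAM complex, which sits on a promoter element called the CHR, and are switched on in G2 by the MuvB core with B-Myb and Foxm1 at the same element, with NF-Y bound at CCAAT boxes nearby. Their transcripts and proteins fall away again after division, so in lymphocytes they mark cells in cycle, and Ki-67 (Mki67) is the usual stain.

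Because this control is known for many mitotic genes, the promoters of the members are shown first. RefSeq promoter windows (build GRCm38.p6, from 250 bases before an annotated start to 50 bases after it) were matched by symbol to 47 of the 58 measured members, as 51 windows. The motifs searched, on either strand, were the CHR as TTTGAA or TTCGAA, the CCAAT box as CCAAT, and an E2F site as TTTGGCGC or TTTCCCGC; TTCGAA is its own reverse complement. The sequences below are the 250 bases before the start, 5′ to 3′ on the gene's strand, with CHR and CCAAT matches in capitals. Cdk1 (chr10:69352913-69353162, minus strand), Ube2c (chr2:164769679-164769928, plus) and Kif11 (chr19:37376132-37376381, plus) show the usual layout, and Birc5 (chr11:117848987-117849236, plus) and Nuf2 (chr1:169531465-169531714, minus) show members with no match to either motif.
Cdk1: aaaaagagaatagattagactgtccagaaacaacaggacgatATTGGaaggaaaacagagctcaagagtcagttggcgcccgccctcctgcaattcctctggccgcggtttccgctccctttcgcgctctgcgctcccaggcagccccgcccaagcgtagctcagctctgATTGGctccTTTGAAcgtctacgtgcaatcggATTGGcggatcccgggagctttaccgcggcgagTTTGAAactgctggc
Ube2c: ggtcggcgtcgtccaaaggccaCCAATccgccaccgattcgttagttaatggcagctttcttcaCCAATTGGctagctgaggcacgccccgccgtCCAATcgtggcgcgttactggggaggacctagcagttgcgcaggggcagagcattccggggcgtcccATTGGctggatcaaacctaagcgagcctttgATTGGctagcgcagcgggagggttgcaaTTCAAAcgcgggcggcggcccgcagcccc
Kif11: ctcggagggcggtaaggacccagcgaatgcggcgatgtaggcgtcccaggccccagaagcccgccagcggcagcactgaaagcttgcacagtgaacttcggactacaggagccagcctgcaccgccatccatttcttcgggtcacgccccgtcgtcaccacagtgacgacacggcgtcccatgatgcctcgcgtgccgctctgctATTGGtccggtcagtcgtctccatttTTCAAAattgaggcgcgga
Birc5: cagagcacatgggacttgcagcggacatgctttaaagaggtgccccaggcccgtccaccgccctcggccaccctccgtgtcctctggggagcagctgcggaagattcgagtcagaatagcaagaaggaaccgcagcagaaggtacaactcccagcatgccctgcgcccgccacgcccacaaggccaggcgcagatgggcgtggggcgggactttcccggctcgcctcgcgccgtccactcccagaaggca
Nuf2: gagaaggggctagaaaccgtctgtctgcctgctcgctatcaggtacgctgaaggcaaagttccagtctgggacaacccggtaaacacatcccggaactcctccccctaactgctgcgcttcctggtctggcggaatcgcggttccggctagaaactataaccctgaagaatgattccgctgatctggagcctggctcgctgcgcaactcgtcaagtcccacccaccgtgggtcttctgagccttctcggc

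In the Cdk1 promoter, CHR letters began 71 and 15 bases before the start, and CCAAT letters 208, 80 and 48 bases before it. Ube2c held 1 CHR match, 29 bases before the start, and Kif11 held 1 at 19 bases before the start with a CCAAT match at 45. Over the members, 38 of 51 windows (74.5%) held a CHR match, against 19.2% of 32851 windows of the same length in the whole table. CCAAT letters were in 74.5% of member windows and 37.4% of all windows, and both motifs were in 64.7% and 7.52%. In the stretch from 100 bases before the start onward, 68.6% of member windows held a CHR match, against 8.59% of all windows. The E2F letters were rarer, in 3 member windows (5.88%) and 1.56% of all windows. By subgroup, the CHR was in 8 of 8 kinesin windows, 7 of 8 spindle and cytokinesis windows and 6 of 12 centromere and kinetochore windows. A match is a run of letters and not a bound site, and no match says only that these letters are not in the window.

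**Figure D1:**
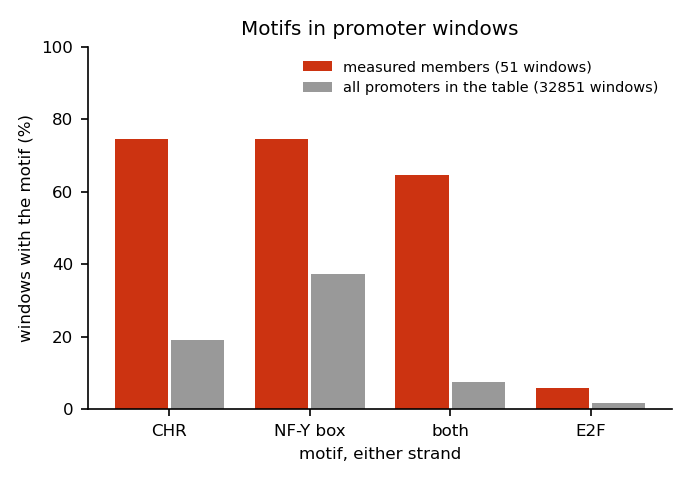
Share of promoter windows, in percent, that hold each motif on either strand, for the 51 windows of the measured mitotic genes and the 32851 windows of the whole table. The bars of the mitotic genes stand at 74.5% for the CHR and for the NF-Y (CCAAT) box, above the 19.2% and 37.4% of all windows, and the E2F bars are low in both.

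Most of the mitotic genes were higher in iTreg than in eTreg. Of the 58 measured members, 56 were higher in iTreg, Smc4 was lower and Pttg1 did not pass the test (limma, adjusted p under 0.05 over all 23521 rows). Over all rows, 5.36% were called higher and 4.63% lower in this comparison. The median log2 difference of the members was 1.95, a 3.86-fold higher level, against -0.01 over all rows. In 25 members the difference was 4-fold or more, and in 29 it lay between 2-fold and 4-fold; 2-fold or larger rises were called in 1.26% of all rows. All 4 iTreg arrays lay above all 4 eTreg arrays in 52 members, against 6.9% of all rows. When eTreg 3, eTreg 4 and e_iTreg 4, the arrays lowest in B cell markers, were left out, 16 members were called (1.70% of all rows).

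**Figure D2:**
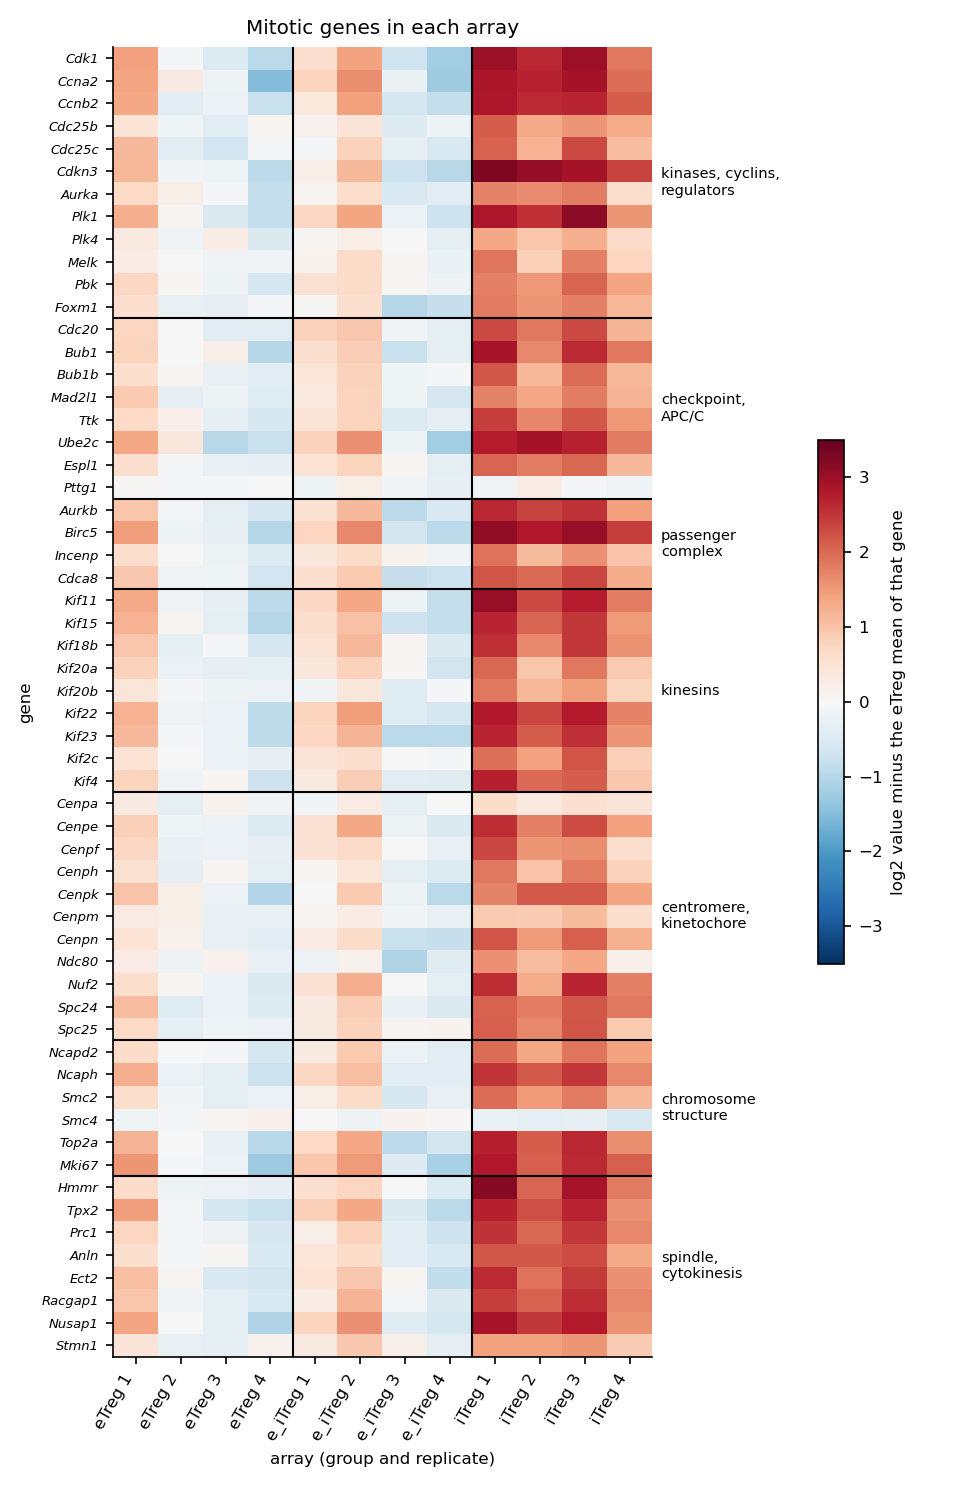
Log2 value of each measured mitotic gene (rows, by subgroup) in each of the 12 arrays (columns, by group and replicate), coloured by its difference from the gene's eTreg mean, red for higher and blue for lower. The 4 iTreg columns are high in nearly every row, eTreg 1 and e_iTreg 2 are the highest columns of their groups, and the rows of Pttg1, Smc4 and Cenpa vary little.

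The kinases and cyclins push a cell into mitosis and were all higher in iTreg (12 of 12, median log2 difference 1.67, from 1.07 to 2.90). Cdk1, the kinase that starts mitosis, was at 8.63, 7.15, 6.70 and 6.25 in eTreg, 7.78, 8.59, 6.49 and 5.96 in e_iTreg, and 10.21, 9.83, 10.17 and 9.04 in iTreg. Every iTreg array lay above the other 8, and the iTreg minus eTreg difference was 2.63 ± 0.54 (SE, 6.2-fold, adjusted p = 0.00629). Cdkn3, a phosphatase that acts on Cdk1, had the largest difference of all members. Its values were 8.08, 6.83, 6.76 and 6.02 in eTreg, 7.16, 8.07, 6.19 and 5.95 in e_iTreg, and 10.19, 10.00, 9.83 and 9.29 in iTreg. The groups with and without DTx did not overlap, and the difference from eTreg was 2.90 ± 0.44 (7.49-fold, adjusted p = 0.00137).

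The cyclin partners of Cdk1 moved with it, at 2.60 ± 0.57 for Ccna2 and 2.56 ± 0.46 for Ccnb2, though with limma's robust prior Ccna2 missed the threshold. Plk1, the polo kinase of mitotic entry and spindle assembly, was higher by 2.52 ± 0.48. The Cdk1-activating phosphatases Cdc25b and Cdc25c were higher by 1.57 ± 0.22 and 1.67 ± 0.38, though the lowest iTreg array of Cdc25c (7.07) lay under the highest eTreg array (7.12). Aurka, the centrosomal Aurora kinase, overlapped in the same way (8.23 against 8.29) with a difference of 1.45 ± 0.32. Foxm1, a transcription factor of mitotic genes, was at 7.80, 6.95, 6.91 and 7.16 in eTreg, 7.24, 7.76, 6.21 and 6.41 in e_iTreg, and 9.03, 8.75, 8.97 and 8.36 in iTreg. The iTreg arrays lay above the other 8, which overlapped each other, and the difference from eTreg was 1.58 ± 0.29 (2.98-fold, adjusted p = 0.00362). Plk4, which starts centriole duplication, had the smallest difference of the subgroup, with 8.28, 7.82, 8.19 and 7.43 in eTreg, 7.96, 8.16, 7.91 and 7.60 in e_iTreg, and 9.28, 8.90, 9.21 and 8.59 in iTreg. It was still higher on every iTreg array, by 1.07 ± 0.19 (2.09-fold, adjusted p = 0.00308). The kinases Melk and Pbk were higher by 1.30 ± 0.24 and 1.67 ± 0.25.

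The spindle checkpoint holds sister chromatids together until every kinetochore is attached, and the anaphase-promoting complex then releases them. In this subgroup 7 of 8 members were higher in iTreg than in eTreg, with a median of 1.83. Ube2c, the ubiquitin carrier of the anaphase-promoting complex, was at 8.33, 7.37, 6.01 and 6.21 in eTreg, 7.80, 8.59, 6.79 and 5.76 in e_iTreg, and 9.72, 9.89, 9.68 and 8.80 in iTreg. Its iTreg arrays lay above all others, though by a narrow margin over e_iTreg 2, and the difference from eTreg was 2.54 ± 0.55 (5.83-fold, adjusted p = 0.00855). Bub1, a checkpoint kinase at the kinetochore, was at 6.59, 5.82, 6.04 and 4.82 in eTreg, 6.39, 6.67, 5.04 and 5.48 in e_iTreg, and 8.70, 7.49, 8.42 and 7.65 in iTreg. The iTreg arrays again stood above the 2 overlapping control groups, and the difference from eTreg was 2.25 ± 0.39 (4.75-fold, adjusted p = 0.00266). The checkpoint genes Bub1b, Mad2l1 and Ttk were higher by 1.62 ± 0.27, 1.52 ± 0.30 and 1.95 ± 0.30. Cdc20, the activator that the checkpoint restrains, was higher by 1.91 ± 0.33, and Espl1, the separase that cuts cohesin, by 1.74 ± 0.25.

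Pttg1 encodes securin, the inhibitor that holds separase inactive, and it was the member that missed the threshold. Its values were 9.02, 8.94, 8.94 and 8.98 in eTreg, 8.80, 9.18, 8.87 and 8.68 in e_iTreg, and 8.85, 9.22, 8.92 and 8.86 in iTreg. The 3 groups overlapped throughout, with a difference of -0.01 ± 0.12 from eTreg (adjusted p = 0.987) and a 95% interval from -0.25 to 0.24. A 2-fold change in either direction lies outside that interval. The sign of a difference this small turned under other settings, for example to 0.02 with arrays centred on their medians.

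The 4 genes of the chromosomal passenger complex, which corrects faulty spindle attachments and later guides cytokinesis, were all higher in iTreg than in eTreg (median 2.10, from 1.40 to 2.84). Birc5, or survivin, was at 7.79, 6.15, 6.04 and 5.33 in eTreg, 7.07, 8.01, 5.69 and 5.40 in e_iTreg, and 9.42, 9.13, 9.37 and 8.76 in iTreg. Its iTreg arrays were within 1 unit of each other while eTreg spread over more than 2, and the difference was 2.84 ± 0.52 (7.17-fold, adjusted p = 0.00355). Aurkb, the kinase of the complex, was at 8.96, 7.94, 7.66 and 7.39 in eTreg, 8.52, 9.11, 7.06 and 7.46 in e_iTreg, and 10.62, 10.34, 10.52 and 9.43 in iTreg. It did not overlap between iTreg and the other groups, and the difference was 2.24 ± 0.42 (4.72-fold, adjusted p = 0.00374). Incenp, the scaffold, had the smallest difference, from 8.21, 7.61, 7.42 and 7.12 in eTreg and 8.0, 8.22, 7.71 and 7.47 in e_iTreg to 9.50, 8.70, 9.19 and 8.59 in iTreg. It was higher than in eTreg by 1.40 ± 0.24 (2.65-fold, adjusted p = 0.00233), and Cdca8, or borealin, by 1.95 ± 0.39.

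All 9 kinesins, the motor proteins that build the spindle and move chromosomes, were higher in iTreg than in eTreg, each by 2-fold or more and each with no overlap (median 2.07). Kif11, the motor that pushes the spindle poles apart, was at 8.67, 7.22, 7.06 and 6.42 in eTreg, 8.06, 8.69, 7.16 and 6.50 in e_iTreg, and 10.38, 9.65, 10.09 and 9.13 in iTreg. The difference was 2.47 ± 0.47 (5.54-fold, adjusted p = 0.0043). Kif22, a chromosome-arm motor, was at 8.46, 7.12, 7.02 and 6.34 in eTreg, 8.01, 8.71, 6.81 and 6.61 in e_iTreg, and 10.03, 9.56, 10.02 and 8.96 in iTreg. Kif22 thus followed the same array order as Kif11 within eTreg, and the difference was 2.40 ± 0.46 (5.29-fold, adjusted p = 0.00437). Kif20b, a motor of cytokinesis, had the smallest difference, with 7.85, 7.38, 7.25 and 7.22 in eTreg, 7.33, 7.82, 7.01 and 7.37 in e_iTreg, and 9.28, 8.58, 8.89 and 8.20 in iTreg, a difference of 1.31 ± 0.22 (2.48-fold, adjusted p = 0.00216). Between these lay Kif23 and Kif15 (2.22 ± 0.48 and 2.17 ± 0.46), Kif18b and Kif4 (2.07 ± 0.36 and 1.95 ± 0.37), and Kif2c and Kif20a (1.59 ± 0.25 and 1.43 ± 0.32).

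The centromere and kinetochore genes form the chromosome's grip on the spindle. All 11 were higher in iTreg than in eTreg (median 1.71), and here the range reached lowest among the called rises, from 0.50 to 2.08. Nuf2, a subunit of the Ndc80 complex that binds microtubules, was at 7.10, 6.57, 6.28 and 5.99 in eTreg, 6.99, 7.76, 6.48 and 6.17 in e_iTreg, and 9.07, 7.78, 9.15 and 8.25 in iTreg. Its lowest iTreg array (7.78) lay just above e_iTreg 2 (7.76), and the difference from eTreg was 2.08 ± 0.35 (4.22-fold, adjusted p = 0.00229). The complex's other subunits Spc24 and Spc25 were higher by 1.97 ± 0.32 and 1.71 ± 0.27. Ndc80 itself was higher by 1.05 ± 0.28 (adjusted p = 0.0267), with an overlap of the lowest iTreg array (7.84) and the highest eTreg array (7.95). The call on Ndc80 was lost without any 1 of eTreg 2, 3 or 4 or iTreg 1, 2 or 3 (adjusted p from 0.0509 to 0.0888), and with the robust prior (0.0534).

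Cenpe, the kinetochore motor, was at 7.59, 6.60, 6.56 and 6.28 in eTreg, 7.27, 8.11, 6.59 and 6.25 in e_iTreg, and 9.35, 8.52, 9.03 and 8.19 in iTreg. All 4 iTreg arrays exceeded both control groups, which overlapped, and the difference from eTreg was 2.02 ± 0.37 (4.04-fold, adjusted p = 0.00333). Cenpa, the histone H3 variant that marks the centromere, was at 9.94, 9.32, 9.75 and 9.51 in eTreg, 9.53, 9.91, 9.29 and 9.65 in e_iTreg, and 10.26, 9.98, 10.20 and 10.08 in iTreg. All iTreg arrays were higher, but the shift was small, at 0.50 ± 0.15 (1.41-fold, adjusted p = 0.0436). That call was lost without any 1 of eTreg 2, 3 or 4, e_iTreg 1 or 4, or iTreg 1, 3 or 4 (adjusted p from 0.0549 to 0.144). Cenpm, of the inner kinetochore, also stayed under 2-fold at 0.88 ± 0.15, while Cenpk, Cenpn and Cenph of the same layer were higher by 1.85 ± 0.39, 1.75 ± 0.32 and 1.37 ± 0.26. Cenpf, of the outer kinetochore, was higher by 1.53 ± 0.32 with an overlap (7.10 in the lowest iTreg array against 7.25 in the highest eTreg array).

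Among the 6 chromosome structure genes, 5 were higher in iTreg than in eTreg and 1, Smc4, was lower. Mki67, the Ki-67 protein that coats mitotic chromosomes, was at 10.48, 8.88, 8.75 and 7.68 in eTreg, 9.88, 10.45, 8.50 and 7.80 in e_iTreg, and 11.76, 11.05, 11.57 and 11.05 in iTreg. The iTreg arrays were all higher, and eTreg spanned nearly 3 units, with a difference of 2.41 ± 0.55 (5.31-fold, adjusted p = 0.0122). With limma's robust prior the adjusted p of Mki67 was 0.0584 and the call was lost. Top2a, the topoisomerase that untangles sister chromatids, was at 8.78, 7.58, 7.36 and 6.60 in eTreg, 8.28, 8.93, 6.67 and 6.95 in e_iTreg, and 10.30, 9.70, 10.21 and 9.20 in iTreg. It did not overlap with the other groups and was higher than in eTreg by 2.27 ± 0.48 (4.83-fold, adjusted p = 0.00776).

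Condensin folds chromosomes for division, and its genes did not all change in the same direction. Ncaph and Ncapd2, subunits particular to condensin I, were higher by 2.21 ± 0.40 and 1.64 ± 0.28, and Smc2, a core subunit of both condensins, by 1.61 ± 0.26. Smc4, the partner of Smc2 in that core, was at 11.92, 12.00, 12.13 and 12.24 in eTreg, 12.08, 11.90, 12.20 and 12.10 in e_iTreg, and 11.84, 11.74, 11.78 and 11.55 in iTreg. Every iTreg array was lower than the other 8, and the difference from eTreg was -0.35 ± 0.10 (1.27-fold lower, adjusted p = 0.0478). The call is close to the threshold. It was lost without any 1 of eTreg 2, 3 or 4, e_iTreg 1 or 4, or any iTreg array (adjusted p from 0.0613 to 0.143), with the replicate block (0.0743) and with quantile normalization (0.0579).

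The 8 spindle and cytokinesis genes were all higher in iTreg than in eTreg and had the highest subgroup median, 2.18 (4.53-fold). Hmmr, a spindle assembly factor, was at 6.70, 5.88, 5.86 and 5.77 in eTreg, 6.64, 6.81, 6.04 and 5.58 in e_iTreg, and 9.25, 8.10, 8.93 and 7.87 in iTreg. The iTreg arrays were more than 1 unit above every other array, and the difference of 2.49 ± 0.32 (5.61-fold, adjusted p = 0.000622) had the smallest p of all members. Nusap1, which bundles spindle microtubules, was at 8.60, 7.21, 6.87 and 6.17 in eTreg, 8.0, 8.82, 6.79 and 6.63 in e_iTreg, and 10.09, 9.68, 9.99 and 8.79 in iTreg. It was higher than in eTreg by 2.43 ± 0.51 (5.38-fold, adjusted p = 0.00711), although e_iTreg 2 (8.82) lay above iTreg 4 (8.79). Stmn1, or stathmin, which takes microtubules apart, had the smallest difference, from 7.13, 6.42, 6.32 and 6.83 in eTreg and 6.99, 7.63, 6.89 and 6.35 in e_iTreg to 8.09, 8.07, 8.21 and 7.57 in iTreg. That is a difference of 1.31 ± 0.24 from eTreg (2.47-fold, adjusted p = 0.00327). Tpx2, which activates Aurora A at the spindle, was higher by 2.31 ± 0.50. The midzone and cleavage furrow genes were higher too, by 2.19 ± 0.35 for Racgap1, 2.17 ± 0.32 for Prc1, 2.14 ± 0.39 for Ect2 and 1.99 ± 0.29 for Anln.

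**Figure D3:**
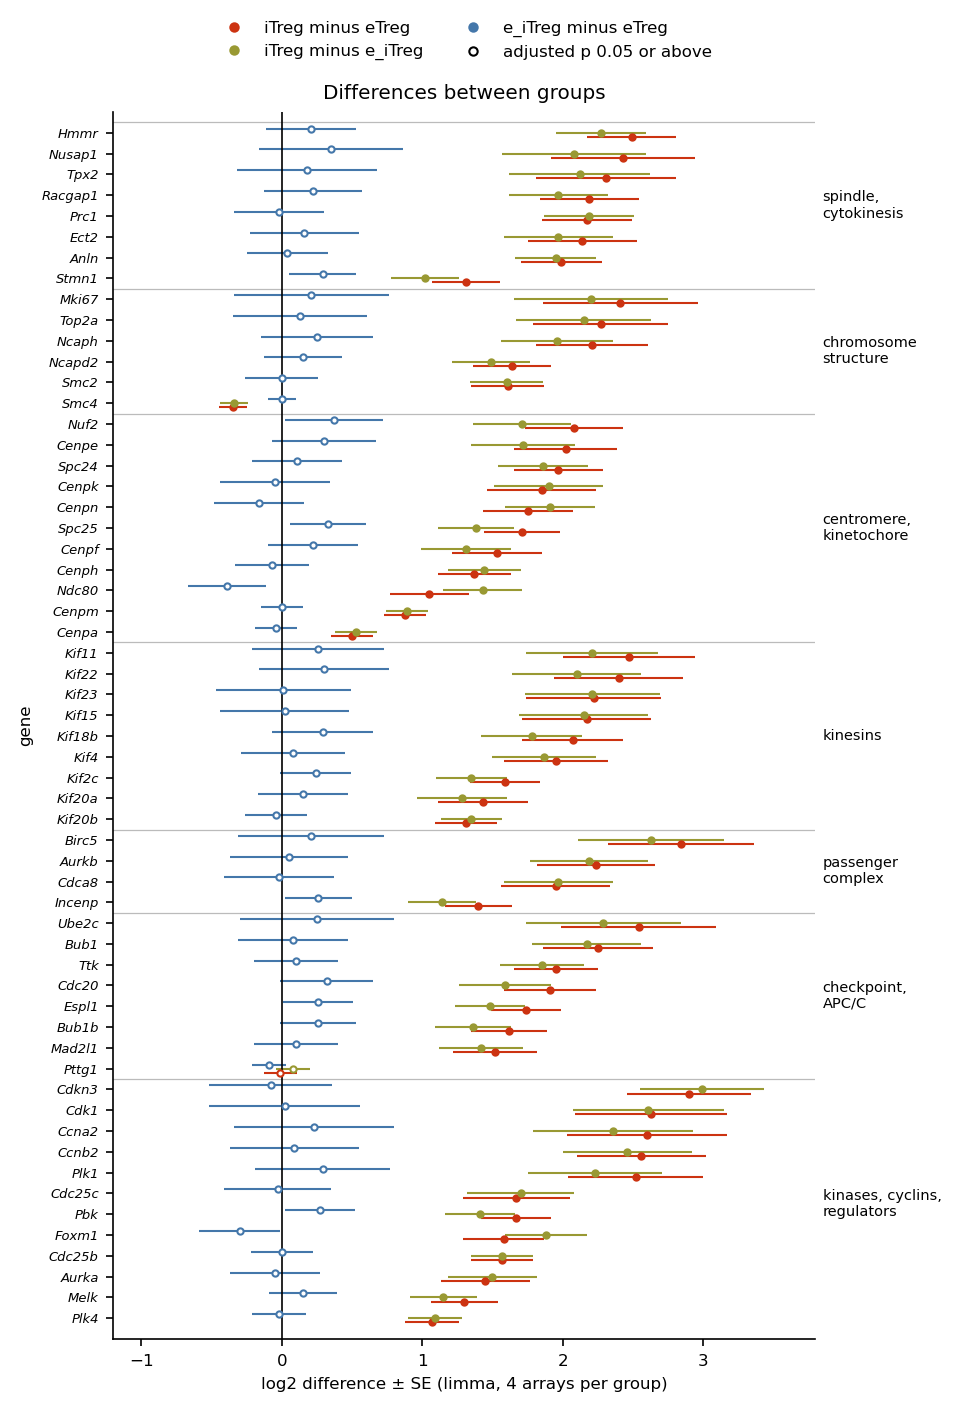
Log2 difference ± SE (limma, 4 arrays per group) of each measured mitotic gene for iTreg minus eTreg (red), iTreg minus e_iTreg (olive) and e_iTreg minus eTreg (blue), with open points where the adjusted p is 0.05 or above. The iTreg differences lie to the right for 56 genes, up to 2.90 for Cdkn3 against eTreg, with Pttg1 at 0 and Smc4 to the left, while the e_iTreg minus eTreg differences lie around 0.

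Against e_iTreg, where both groups had received IVIg and iTreg alone had DTx, 56 of 58 were higher in iTreg, Smc4 was lower and Pttg1 missed the threshold (6.49% of all rows called higher, 4.75% lower). The median difference was 1.85 (3.62-fold, against -0.07 over all rows), 19 members were 4-fold or more higher, and 53 did not overlap (7.57% of all rows). The comparison shares its iTreg arrays with the one against eTreg. Counting over both control groups, 50 of 58 members had all 4 iTreg arrays above all 8 others. The share of all rows was not counted for this rule, but it cannot exceed the 6.9% that cleared eTreg alone.

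By subgroup, the iTreg minus e_iTreg medians were 2.08 for the passenger complex, 2.03 for spindle and cytokinesis genes, 1.87 for kinesins, 1.79 for kinases and cyclins, 1.78 for chromosome structure, 1.54 for checkpoint genes and 1.44 for centromere and kinetochore genes. Hmmr again had the smallest p among the rises (2.27 ± 0.32, adjusted p = 0.00099), and Smc4 was the only fall (-0.34 ± 0.10, adjusted p = 0.0473). Foxm1 was higher than in e_iTreg by 1.88 ± 0.29 and Cdkn3 by 2.99 ± 0.44. Pttg1 differed by 0.08 ± 0.12 (adjusted p = 0.696, 95% interval from -0.17 to 0.33). With the robust prior, Ccna2, Kif20a, Mki67, Nusap1, Tpx2 and Ube2c missed the threshold (51 called). Leaving out 1 array kept 48 of the 57 calls in every case. Ccna2 and Tpx2 were lost without e_iTreg 3 or 4, Cenpf and Nusap1 without either of those or iTreg 1, Mki67 and Kif20a without e_iTreg 3 or 4 or iTreg 1 or 3, and Ube2c without e_iTreg 3. Cenpa was lost without e_iTreg 1, 3 or 4 or iTreg 1 or 3, and Smc4 without any 1 of eTreg 2 or 3, e_iTreg 1, 3 or 4, or any iTreg array.

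Between e_iTreg and eTreg, which differ in IVIg against albumin, no member was called, and none reached an unadjusted p under 0.05. Of all rows 0% were called after adjustment, and 7.01% had an unadjusted p under 0.05. The median difference was 0.12, against 0.03 over all rows. A difference above 0 was found in 42 of 58 members and in 13860 of all 23521 rows. The extremes were Ndc80 at -0.39 ± 0.28 (adjusted p = 0.742) and Nuf2 at 0.37 ± 0.35 (adjusted p = 0.791), and the smallest p of a positive difference belonged to Spc25 (0.33 ± 0.27, adjusted p = 0.761). No member had groups that did not overlap, against 2.63% of all rows higher and 1.66% lower. The test was not precise for these genes. Their standard errors ran from 0.10 to 0.57, and a 2-fold change in both directions lay outside the 95% interval for 38 of 58 members only.

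**Figure D4:**
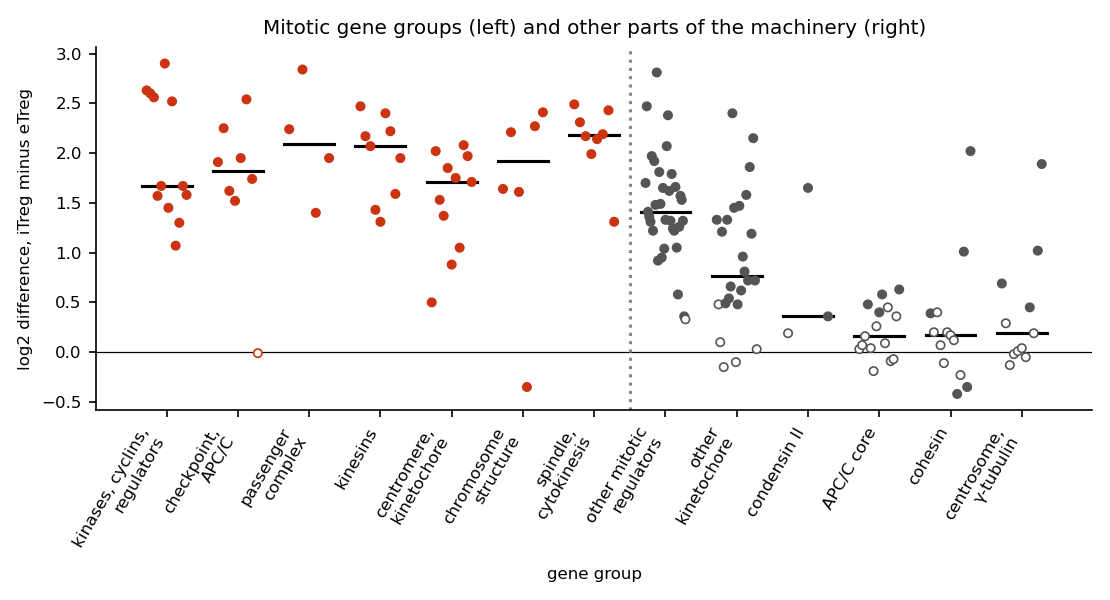
Log2 difference, iTreg minus eTreg, of each gene (points, open where the adjusted p is 0.05 or above) with the median of each gene group (bars), for the 7 mitotic subgroups on the left and the 6 lists of other parts of the machinery on the right. The subgroup medians on the left lie between 1.67 and 2.18, and on the right they run from 1.41 for other mitotic genes down to 0.16 for the core of the anaphase-promoting complex.

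The mitotic genes also varied between arrays of 1 group. The median SD over the members was 0.57 in eTreg, 0.63 in e_iTreg and 0.47 in iTreg, while over all rows it was 0.14, 0.16 and 0.16. The widest range was that of Ccna2, at 2.89 in eTreg and 2.86 in e_iTreg, and in iTreg that of Kif4, at 1.78. The same array was highest for most members of a group. The array eTreg 1 was the highest of its group in 57 of 58 members (23.1% of all rows), e_iTreg 2 in 57 of 58 (20.5%) and iTreg 1 in 40 (23.6%). Replicate 4 was the lowest of its group in 46 members in eTreg (23.6% of all rows), 43 in e_iTreg (26.9%) and 50 in iTreg (27.3%). Averaged over the 58 members, the arrays stood at 8.16, 7.26, 7.11 and 6.78 in eTreg, 7.73, 8.23, 7.0 and 6.80 in e_iTreg, and 9.53, 9.05, 9.46 and 8.62 in iTreg. The lowest iTreg array thus lay above the highest of the other 8, and the group means were 7.33 ± 0.59, 7.44 ± 0.66 and 9.16 ± 0.42 (SD, n = 4 each).

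**Figure D5:**
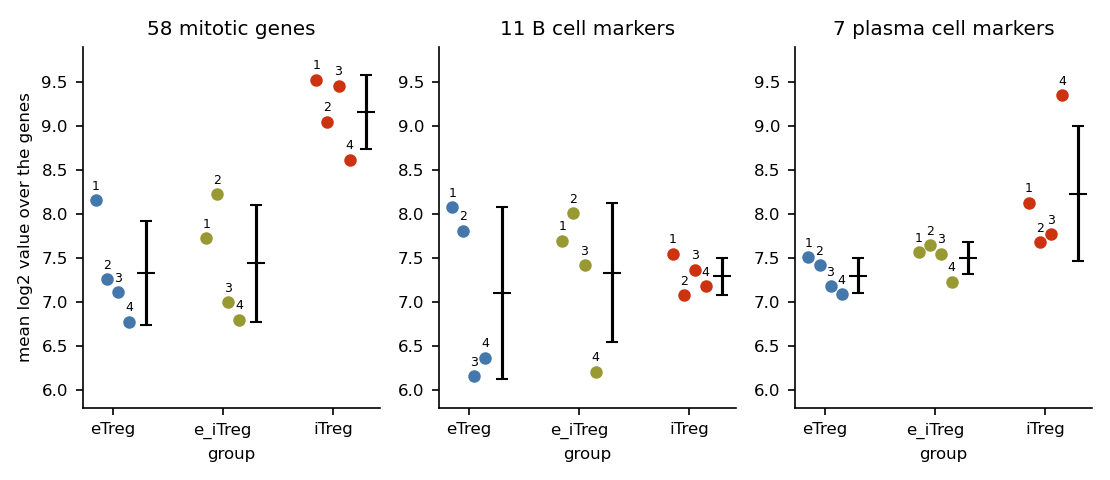
Mean log2 value per array, by group, over the 58 mitotic genes, 11 B cell markers and 7 plasma cell markers, with each point numbered by replicate and bars at the group mean ± SD (n = 4). The mitotic mean of each iTreg array (8.62 to 9.53) is above that of each other array, while the B cell mean is lowest in eTreg 3, eTreg 4 and e_iTreg 4 (6.16 to 6.37).

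Markers of other cells that a spleen sort could carry were set beside these values. The 11 measured B cell markers had a mean of 8.08, 7.81, 6.16 and 6.37 in eTreg, 7.70, 8.01, 7.42 and 6.21 in e_iTreg, and 7.55, 7.08, 7.37 and 7.18 in iTreg, with 0 called in any comparison. The iTreg means were thus below those of eTreg 1 and eTreg 2 and above those of eTreg 3, eTreg 4 and e_iTreg 4. In both control groups the array highest in mitotic genes was also highest in B cell markers. With the B cell mean as a covariate, 55 members were called against eTreg and 57 against e_iTreg, with medians of 1.83 and 1.88 (9.42% and 11.9% of all rows called). When eTreg 3, eTreg 4 and e_iTreg 4, where B cell markers were lowest, were left out (2 eTreg arrays remain), 56 members were still higher than in eTreg in value and the median was 1.53, but 16 of 58 were called (1.70% of all rows). Among the 16 were Cdkn3, Plk4, Ttk, Nuf2, Hmmr and Prc1, whereas Cdk1 (1.93, adjusted p = 0.0812), Birc5 (2.20, adjusted p = 0.0552) and Mki67 (1.67, adjusted p = 0.104) missed the threshold. Against e_iTreg, 52 were called without those arrays (5.77% of all rows).

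Most plasma cell and myeloid markers did not pass the test, but all 7 and all 9 had a difference above 0 against eTreg (10978 of 23521 rows). The plasma cell mean of every iTreg array lay above every eTreg and e_iTreg array, and iTreg 4 stood high in both lists. The mean of 7 plasma cell markers ran from 7.09 to 7.51 in eTreg, from 7.23 to 7.65 in e_iTreg and from 7.68 to 9.35 in iTreg, where iTreg 4 gave the 9.35. Against eTreg, 1 of 7 was called higher (Prdm1, 1.04 ± 0.19, adjusted p = 0.00364), beside 5.36% of all rows. Jchain reached 11.69 in iTreg 4, the iTreg array lowest in mitotic genes. It was next highest, at 8.18, in iTreg 1, the array highest in mitotic genes. The mean of 9 myeloid markers ran from 6.38 to 7.21, 6.31 to 7.16 and 7.17 to 8.29 in the same order, with 8.29 in iTreg 4. The other 3 iTreg arrays lay at 7.35, 7.17 and 7.18, beside 7.21 in eTreg 2 and 7.16 in e_iTreg 3. Of the 9, 2 were called higher against eTreg (Itgam, 1.68 ± 0.29, and Cst3, 0.57 ± 0.13). Itgam lay between 7.77 and 8.99 in iTreg, against at most 7.10 in eTreg and 7.29 in e_iTreg. The part of plasma and myeloid cells in the mitotic differences was not tested. The list mean of 5 erythroid markers lay between 5.95 and 6.21 on all arrays, that of the 3 measured germinal centre B cell markers between 5.83 and 6.33, and that of 7 CD8 and NK cell markers between 6.33 and 6.95, with no marker of these lists called.

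Outside the 58 members, 6 lists cover other genes of the same machinery. Together they hold 99 measured genes, of which 64 were higher in iTreg than in eTreg (5.36% of all rows) and 2 were lower (4.63%). The calls fell from 66 to 16 when eTreg 3, eTreg 4 and e_iTreg 4 were left out (1.70% of all rows). Of 33 other mitotic genes, 32 were higher (median 1.41), among them Fbxo5, the inhibitor that holds the anaphase-promoting complex off before mitosis (1.66 ± 0.22, adjusted p = 0.000669), Mybl2, the B-Myb factor that works with Foxm1 (1.22 ± 0.18, adjusted p = 0.00121), and Cep55, which completes abscission (2.47 ± 0.39, adjusted p = 0.00179). The exception was Sapcd2 (0.33 ± 0.11, adjusted p = 0.0804). Of 24 other kinetochore genes, 19 were higher (median 0.77), with the smallest p for Nsl1 of the Mis12 complex (0.96 ± 0.13, adjusted p = 0.000868), and Cenpw and Cenpp of the inner kinetochore (1.33 ± 0.20 and 1.21 ± 0.20). Not called were Cenpl, Cenpq, Cenpo, Zwint and Mad1l1, which lay between -0.15 and 0.48.

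The lists of parts that also act outside mitosis had lower medians. Of 15 subunits and activators of the anaphase-promoting complex, 4 were higher than in eTreg (median 0.16): Anapc5 (0.48 ± 0.11, adjusted p = 0.0114), Anapc13 (0.40 ± 0.10, adjusted p = 0.0186), Fzr1 (0.63 ± 0.17, adjusted p = 0.0259) and Anapc15 (0.58 ± 0.17, adjusted p = 0.0405). Of 13 cohesin genes, 3 were higher and 2 lower (median 0.17). The rises were those of Esco2, the acetyltransferase that fixes cohesion in S phase (2.02 ± 0.35, adjusted p = 0.00263), Cdca5, or sororin, which protects it (1.01 ± 0.18, adjusted p = 0.00322), and the ring subunit Smc1a (0.39 ± 0.12, adjusted p = 0.0446). The falls were those of the loader Nipbl (-0.42 ± 0.10, adjusted p = 0.0132) and of Esco1, the acetyltransferase that acts through the whole cycle (-0.35 ± 0.11, adjusted p = 0.0473). Of 11 centrosome genes, 4 were higher (median 0.19): the centriole genes Sass6 (1.02 ± 0.13, adjusted p = 0.000622) and Stil (1.89 ± 0.35, adjusted p = 0.00347), and Tubg1 and Nedd1 of the gamma-tubulin complex (0.69 ± 0.13 and 0.45 ± 0.12). In condensin II, Ncapg2 was higher by 1.65 ± 0.30 and Ncaph2 by 0.36 ± 0.11 (adjusted p = 0.0483), and Ncapd3 was not called (0.19 ± 0.11). Several of these calls depended on single arrays. Fzr1 was lost without any 1 of eTreg 2, 3 or 4 or iTreg 1, 2 or 3, and Anapc13 without eTreg 3, eTreg 4 or iTreg 1. Anapc15 was lost without any 1 of eTreg 2, 3 or 4, e_iTreg 1, or iTreg 1 or 3, and Nedd1 without eTreg 3 or 4 or iTreg 2 or 3. Esco1 was lost without any 1 of eTreg 2, 3 or 4, e_iTreg 2 or 4, or iTreg 1, 3 or 4, and Ncaph2 without any 1 of eTreg 2, 3 or 4, e_iTreg 1, 2 or 4, or iTreg 1, 2 or 3. Smc1a was lost without any 1 array except e_iTreg 3 and iTreg 4. Against e_iTreg, 65 of the 99 were higher (6.49% of all rows) and 1 was lower (4.75%), and between e_iTreg and eTreg none was called (0%).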

How the data were processed

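RNA from sorted splenic Treg was hybridised to Affymetrix whole-transcript arrays, 4 per group. The deposited values are log2 signals that the authors made with oligo and RMA, per the submitters' processing notes; versions and a genome build for the arrays are not given in the sources used here, so no gene positions are printed beyond RefSeq's promoter windows. The table has 41345 rows and no detection calls. Of these, 23521 rows carry 1 gene symbol (22180 genes), 1814 carry several and 16010 none; the first set was used, with the brightest row per gene. No 2 arrays were identical.

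One limma fit (3.58.1, R 4.3.3) covered all 12 arrays and 3 groups (9 residual degrees of freedom), two-sided, with Benjamini-Hochberg adjustment over all 23521 rows and a threshold of 0.05. The script was tested on simulated data. Values after ± are standard errors unless called SD. Each p-value rests on the spread among arrays within groups, pooled over all 3 groups and moderated by limma. That spread may be partly technical.

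The members, lists and tests were chosen with earlier results of these data known. Genes given in every array are, per subgroup, the 2 with the largest and the 1 with the smallest difference between iTreg and eTreg, plus Cdk1, Foxm1, Mki67, Top2a and Birc5. In other lists, the 3 genes with the smallest p and those that move against the list are named with their differences only. Remaining genes not covered by these rules were added afterwards for their role. The promoters printed are some of the planned set, and only their bases before the annotated start are shown. Alternatives changed the normalization, filter, fit, samples and threshold, and left out each array in turn. Replicate numbers were tried as a block. Correlations between same-numbered arrays ran from -0.15 to 0.24, which cannot settle whether they shared a batch. In the mitotic genes, replicate 4 was the lowest array of all 3 groups for most members. The 3 arrays with the signal of 1 sex only and the 3 lowest in B cell markers were left out as alternatives added after the data were seen.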

Additional observations from a re-analysis of the deposited data

Results flagged for a closer look

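Hmmr in eTreg stood out for 1 array. Replicate 1 was at 6.70, the next highest array at 5.88 and the lowest at 5.77, so the gap took 0.884 of the group's range, above Dixon's 95% critical value for 4 arrays. It was the 1 such case among the 69 groups of 4 arrays examined, and chance alone marks about 5% of groups. The same array was the highest of its group in 57 of the 58 members.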

How the results depend on the processing

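Leaving out 1 array at a time gave 54 to 57 members called between iTreg and eTreg, 48 to 57 between iTreg and e_iTreg and 0 between e_iTreg and eTreg, with medians from 1.75 to 2.18, from 1.62 to 2.09 and from -0.14 to 0.42. The other machinery lists gave 51 to 66 and 49 to 64 calls. In these settings, 6.32% to 10.4% of all rows were called between iTreg and eTreg. Between iTreg and e_iTreg, 11.2% of all rows were called with all 12 arrays. Members with no overlap, higher in e_iTreg than in eTreg, numbered 0 to 1; the 1 appeared without eTreg replicate 1. When the 3 arrays where B cell markers were lowest were left out, 16 members and 16 genes of the other lists were called between iTreg and eTreg (1.7% of all rows). That setting leaves 2 eTreg arrays. The replicate block gave 55 and 56 called members in the 2 iTreg comparisons, with medians of 1.95 and 1.85 (9.46% of all rows called against eTreg). The robust prior gave 54 and 51 called members (9.93% and 11.2% of all rows). The block's lost calls were those of Cenpa and Smc4 against eTreg (adjusted p = 0.0658 and 0.0743) and of Smc4 against e_iTreg (0.0718). Without the 3 arrays with the signal of 1 sex only, 55 and 52 members were called (4.95% of all rows called against eTreg). For that setting and the replicate block, the share of all rows against e_iTreg is not given here. The sign of Pttg1 between iTreg and eTreg, never called, turned with median centring (0.02), without those 3 arrays (0.02), and without eTreg 1 (0.01), iTreg 1 (0.03), iTreg 3 (0.01) or iTreg 4 (0.03), over a range from -0.09 to 0.03 when 1 array was left out; the cause was not tested. The number of arrays limits the precision, and no member's mean over all 12 arrays lay below a log2 value of 6, though some group means did.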
